A study of Homo sapiens with 2 samples.

Results

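MiR-146a and miR-146b are paralogous miRs made from separate genes, and here they were followed in K562/ADM cells, an adriamycin-resistant line, against the parental K562 cells. Their members were chosen by name: in the deposited table, every name whose stem is miR-146a or miR-146b was kept, whichever arm of the hairpin it came from. This gave 3 of the 934 names listed, which were miR-146a, miR-146b-5p and miR-146b-3p. The passenger strand miR-146a* is not listed, so that arm use could be described for the miR-146b hairpin alone.

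Small RNA was sequenced from K562/ADM and from its parental line K562, which was derived from a chronic myelogenous leukemia, with 1 library for each. K562/ADM is a stable variant that had been raised from K562 in rising adriamycin (ADM), an anthracycline drug, and was then kept in 1000 ng/mL of it, while the K562 cells were untreated. Acquired resistance and the continued presence of the drug therefore cannot be told apart, and none of the sources used here says whether K562/ADM is a single clone. The libraries held 6895193 reads of listed miRs in K562/ADM and 7677738 in K562. Among miRs typical of blood cells, miR-142-3p had 507475 reads in K562/ADM and 351692 in K562, and miR-142-5p had 9588 and 10380. Of the erythroid ones, miR-451 had 19738 reads in K562/ADM and 30470 in K562, miR-144, from the same cluster, had 6216 and 5564, and miR-486-5p had 10404 and 15723. After scaling, the ratios of these miRs and of the myeloid miR-223 ran from 0.793 for miR-451 to 1.77 for miR-142-3p, and none passed 2-fold. Of the 7 miRs taken as typical of liver, muscle, neurons or epithelium, none had more than 22 reads in K562/ADM or more than 10 in K562.

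A miR guides Argonaute proteins to messenger RNAs that pair with its seed, the bases 2 to 8 counted from its 5′ end, and lowers the output of those messages. MiR-146a is induced by NF-kB after signals from Toll-like and interleukin-1 receptors, and it represses the adaptor proteins TRAF6 and IRAK1 of the same pathway, so that it is known as a negative feedback regulator of innate immune signalling. MiR-146b carries the same seed and can act on the same messages.

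The mature sequences are shown because the shared seed is the reason to add the paralogs into a pool. They are the RefSeq sequences (GRCh38.p14), 5′ to 3′, with the seed in capitals, and all 3 names were matched. The sequences of the miRBase release to which the reads were mapped were not used here.
miR-146a: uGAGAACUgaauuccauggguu
miR-146b-5p: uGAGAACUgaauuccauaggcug
miR-146b-3p: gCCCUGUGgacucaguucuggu

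MiR-146a and miR-146b-5p had the seed GAGAACU in common, and miR-146b-3p, from the opposite arm, had CCCUGUG. In RefSeq, 3 mature human miRs carry the seed GAGAACU. The other one is miR-7153-5p, which is not listed in the table, so that the pool of this seed consisted of miR-146a and miR-146b-5p. The paralogs were identical over their first 17 bases and at 20 of the 22 positions compared. Counted from the 5′ end, miR-146b-5p differed from miR-146a by G18A and U21C, and it had 1 more base at its 3′ end. The same sequences are repeated with the differing bases in capitals, since reads of the paralogs can be separated by these bases alone.
miR-146a: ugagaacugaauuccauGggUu
miR-146b-5p: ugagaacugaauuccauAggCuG

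On GRCh37 the miR-146a hairpin matched chromosome 5 from 159912359 to 159912457 on the plus strand. GENCODE places this stretch inside exon 2 of the lncRNA gene MIR3142HG, in both of its annotated transcripts. The miR-146b hairpin matched chromosome 10 from 104196269 to 104196341 on the plus strand, where no other GENCODE gene overlapped it. These positions come from an exact match of the RefSeq hairpins to that build.

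MiR-146b-5p was the most abundant member by far. It had 788363 reads in K562/ADM and 589328 in K562, and stood second among all listed names in both libraries, behind miR-378. Its share of the reads was 11.4% in K562/ADM (95% interval 11.4 to 11.5, Clopper-Pearson) and 7.68% in K562 (7.66 to 7.69). With libraries scaled by their median ratio, K562/ADM stood over K562 at a ratio of 1.64 (1.63 to 1.64). Each interval in the text covers counting error only. A replicate check could not be made with 1 library per cell line, so that the values compare these libraries rather than the conditions.

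MiR-146a had far fewer reads than miR-146b-5p in each library. It had 1971 reads in K562/ADM, where it ranked 82nd of the 934 names, and 238 reads in K562, where it ranked 228th. Its share of the reads was 0.0286% in K562/ADM (95% interval 0.0273 to 0.0299) and 0.00310% in K562 (0.00272 to 0.00352). It was thus 10.1-fold higher in K562/ADM after scaling (8.86 to 11.7). Of the 276 names with at least 50 reads in each library, 4 had a larger ratio than miR-146a, and 51 had a larger ratio than miR-146b-5p. That minimum left out names with few reads in K562 and larger ratios than miR-146a. Among them, named after their values were seen, were miR-584, with 621 reads in K562/ADM and 7 in K562, and miR-3117, with 600 and 33. Their ratios were 109 (52.4 to 271) and 22.3 (15.7 to 32.6), so that the count of 4 holds among the 276 alone.

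The opposite arm of the miR-146b hairpin went the other way. MiR-146b-3p had 149 reads in K562/ADM and 434 in K562, a ratio of 0.420 (95% interval 0.347 to 0.508), which is 2.38-fold lower (1.97 to 2.88). Its share of the reads was 0.00216% in K562/ADM (0.00183 to 0.00254) and 0.00565% in K562 (0.00513 to 0.00621). It was therefore the scarcest of the 3 members in K562/ADM, whereas miR-146a was the scarcest in K562.

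**Figure D1:**
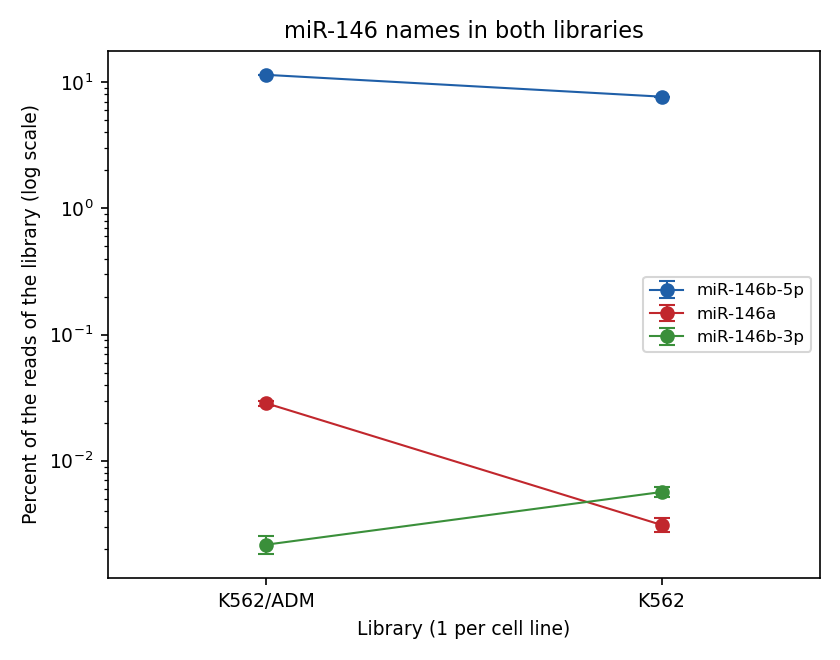
Share of the reads of each library (y axis, percent, log scale) for the 3 miR-146 names in K562/ADM and K562 (x axis, 1 library each). Bars are 95% Clopper-Pearson intervals, and the lines only join the values of 1 name. MiR-146b-5p stood at 11.4% in K562/ADM and 7.68% in K562, while the lines of miR-146a and miR-146b-3p cross.

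Calls needed a difference of at least 2-fold together with an interval that did not hold 1. By this rule miR-146a was higher, miR-146b-3p was lower and miR-146b-5p was not called. Over all 934 names, 11.1% were called higher (104 names) and 15.6% lower (146 names), and with 3 members no share is read against these. The call of miR-146a also held for its whole interval, whereas the interval of miR-146b-3p, 1.97 to 2.88-fold lower, began short of 2-fold. Upper-quartile scaling, which multiplied every ratio by 1.67, gave 2.74 for miR-146b-5p, which was then called higher, and 0.704 for miR-146b-3p, which was then not called. It also turned the split of the calls over all names into 223 higher and 95 lower.

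**Figure D2:**
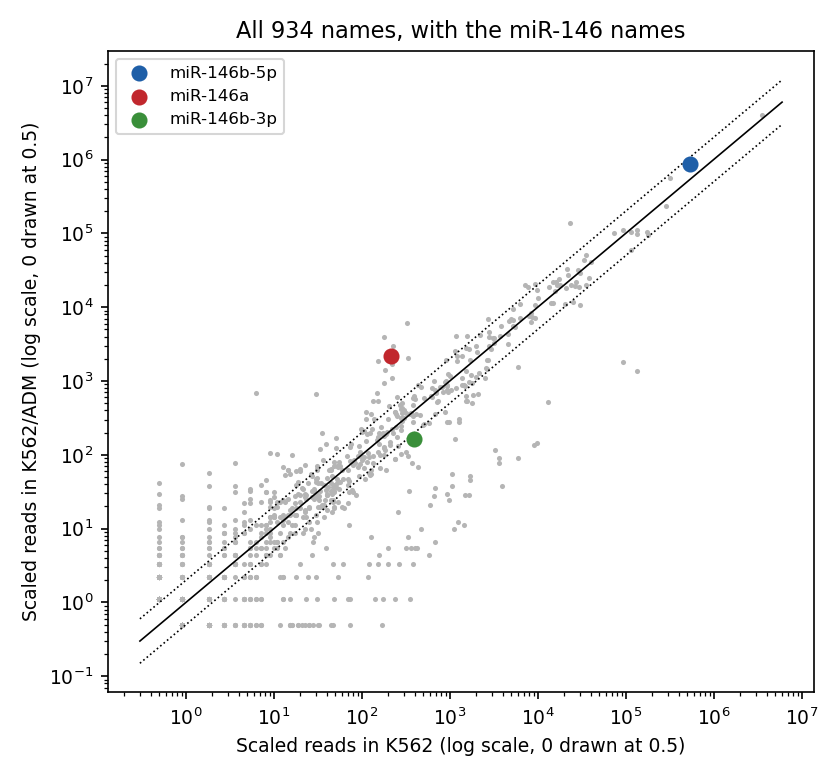
Scaled reads of the 934 names, with K562/ADM on the y axis and K562 on the x axis. Each axis is logarithmic and shows 0 at 0.5, grey points are the other names, the diagonal is equality and dots mark a 2-fold difference either way. MiR-146a lies above the upper dotted line at a ratio of 10.1, miR-146b-5p between the lines at 1.64 and miR-146b-3p below the lower one at 0.420.

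The pool of the shared seed was almost wholly miR-146b-5p. MiR-146a and miR-146b-5p together had 790334 reads in K562/ADM, 11.5% of that library (95% interval 11.4 to 11.5), and 589566 reads in K562, 7.68% (7.66 to 7.70). The ratio of the pool was 1.64 (1.636 to 1.647), within the rounding of that of miR-146b-5p. Of the scaled reads by which the pool was larger in K562/ADM, 99.4% were miR-146b-5p and 0.575% miR-146a. A 10.1-fold difference in miR-146a thus left the pool ratio nearly where miR-146b-5p alone put it.

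The make-up of the pool nevertheless differed. MiR-146a made up 0.249% of the pool in K562/ADM (95% interval 0.239 to 0.261) and 0.0404% in K562 (0.0354 to 0.0458). There were 400 reads of miR-146b-5p for each read of miR-146a in K562/ADM and 2476 in K562. The odds of miR-146a to miR-146b-5p were 6.19-fold higher in K562/ADM (5.41 to 7.11, exact conditional interval). This value does not depend on how the libraries are scaled. The mature sequences are 22 and 23 bases long.

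Because the paralogs differ at few bases near the 3′ end, the authors' mapping could have given some miR-146b-5p reads to miR-146a. The mapping used the default settings of miRanalyzer, but none of the sources says how many mismatches these allow. For every 10000 reads of miR-146b-5p there were 25.0 of miR-146a in K562/ADM and 4.04 in K562. At the K562 figure, the miR-146b-5p reads of K562/ADM would come with 318 reads of miR-146a, and 1971 were counted, 1653 more. A share of misassigned reads that differed between the libraries was not tested.

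Within the miR-146b hairpin, the 3p arm took a smaller part in K562/ADM. It made up 0.0189% of the reads of the hairpin in K562/ADM (95% interval 0.0160 to 0.0222) and 0.0736% in K562 (0.0668 to 0.0808). For each 3p read there were 5291 reads of the 5p arm in K562/ADM and 1358 in K562. The odds of the 3p arm were 3.90-fold lower in K562/ADM (3.23 to 4.73), or -1.96 on the log2 scale, and this too is independent of the scaling. The 5p arm, loaded as the guide, dominated the hairpin in each library.

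Arm use was compared with that of other hairpins whose arms could be paired by name, as -5p with -3p or a name with the same name and *. Names spelled mir-, or with a gene number before the *, such as mir-1307* and miR-92a-1*, were not paired. In 87 of the paired hairpins each arm had at least 50 reads in the libraries together, the arm with fewer reads being the minor one. The minor arm made up a median of 9.83% of the hairpin in K562/ADM and 11.6% in K562. MiR-146b had a lower minor share than most, with 4 hairpins below it in K562/ADM and 2 in K562. The log2 odds of the minor arm, K562/ADM over K562, had a median of -0.18 and were below 0 in 53 of the 87 hairpins. Hairpins left out by the pairing, such as those of miR-370 and miR-561, were not ranked. Among those left out, miR-370 had 0 reads in K562/ADM and 187 in K562, beside 1 and 192 for mir-370*. Within the 87, miR-146b at -1.96 was exceeded in size by 4 hairpins, which were miR-369, miR-377, miR-154 and miR-767, named after their values were seen. The first 3 belong to the 14q32 cluster and had at most 5 reads on either arm in K562/ADM, and miR-767 had 41 minor-arm reads in K562/ADM and 9 in K562. The counts behind miR-146b, at 149 and 434 minor-arm reads, were the larger ones. The arms stood on either side of a ratio of 1 in 24 of the 87 hairpins, miR-146b among them. Unlike the odds, this count depends on the scaling. By the rule of fold and interval, 0 of the 87 had 1 arm called higher and the other lower.

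**Figure D3:**
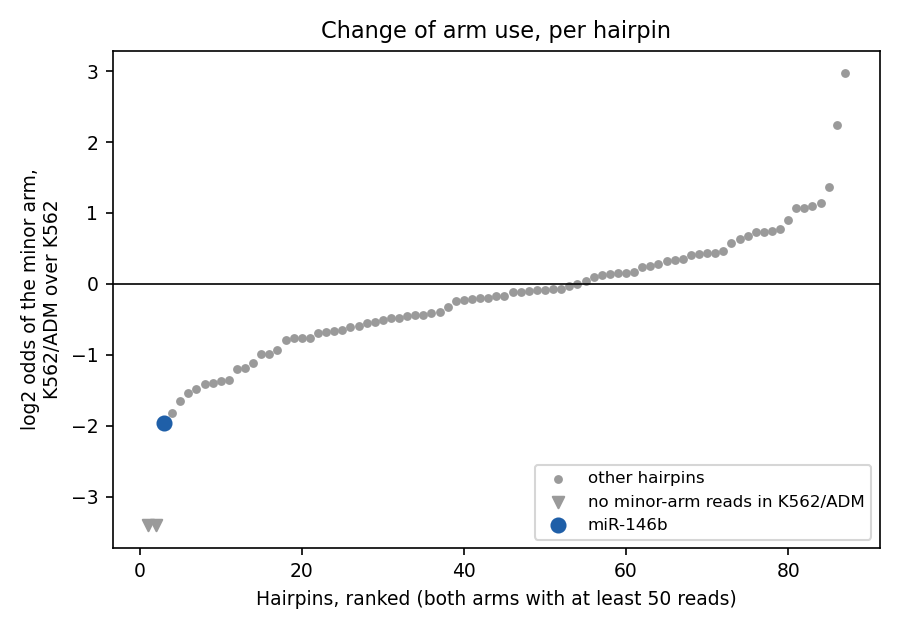
Log2 odds of the minor arm, K562/ADM over K562 (y axis), for the 87 hairpins ranked by this value (x axis). Grey points are other hairpins, triangles at the lower edge are the hairpins without minor-arm reads in K562/ADM, and the line marks equal arm use. MiR-146b stands near the left end at -1.96, against a median of -0.18.

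With 2 libraries, likeness to a member could be measured only as closeness of levels, given as the distance between log2 scaled reads over both libraries. Among 708 other names with reads in both, the nearest to miR-146a were miR-135b* at 0.37, miR-184 at 0.44 and miR-135b at 0.56. MiR-135b* had 1529 reads in K562/ADM and 243 in K562, and miR-184 had 2657 and 251. The same names were also nearest in log2 ratio. For miR-146b-5p the nearest name by level was miR-142-3p, at 0.98, with a ratio of 1.77 (95% interval 1.76 to 1.77). The next, miR-21 and miR-20a, were more than 2 units away, with ratios of 0.818 and 0.598. By log2 ratio alone, the names nearest to miR-146b-5p were miR-15a, miR-9* and miR-105, with ratios of 1.65, 1.62 and 1.67.

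Other miRs linked to Toll-like receptor and NF-kB signalling mostly stayed within 2-fold. Of 19 names on a list of such miRs, 17 are listed in the table, and miR-155 and miR-147 are not. By fold and interval, 1 of the 17 was called higher and 0 lower, against 11.1% and 15.6% of all names. The 15 with at least 10 reads had a median log2 ratio of 0.23, beside -0.08 over all 604 names with as many reads. Another scaling shifts both medians by the same amount, down by 0.14 for total reads and up by 0.74 for the upper quartile, where 7 of the list were called higher.

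Among the miRs induced by the pathway, miR-9, which is induced by Toll-like receptor signals in myeloid cells and acts on NFKB1, was the one called higher. It had 17882 reads in K562/ADM and 7976 in K562, a ratio of 2.75 (95% interval 2.67 to 2.82). MiR-21, which represses the tumor suppressor PDCD4, had 213243 reads in K562/ADM and 319157 in K562, and its ratio was 0.818 (0.814 to 0.823). MiR-132 and miR-212, which are made from a common transcript, had ratios of 0.946 (0.704 to 1.27) and 1.71 (1.37 to 2.13). MiR-147b had 29 reads in K562/ADM and 31 in K562, with a ratio of 1.15 (0.666 to 1.96). The lower limit for miR-146a, 8.86, lay above the upper limits of these miRs.

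Among the miRs that act on the pathway, miR-301a, which represses the NF-kB repressing factor NKRF, had a ratio of 1.50 (95% interval 1.42 to 1.59). MiR-15a and miR-16, which share a cluster and repress BCL2, had ratios of 1.65 (1.58 to 1.73) and 1.48 (1.45 to 1.51). MiR-223, a miR of myeloid cells, had 1246 reads in K562/ADM and 1712 in K562, a ratio of 0.891 (0.828 to 0.959). MiR-125b had 17 and 11 reads, too few for its ratio of 1.89 to be set apart from 1 (0.836 to 4.47). The other members with at least 10 reads had ratios from 0.897 for miR-181b to 1.67 for miR-105.

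**Figure D4:**
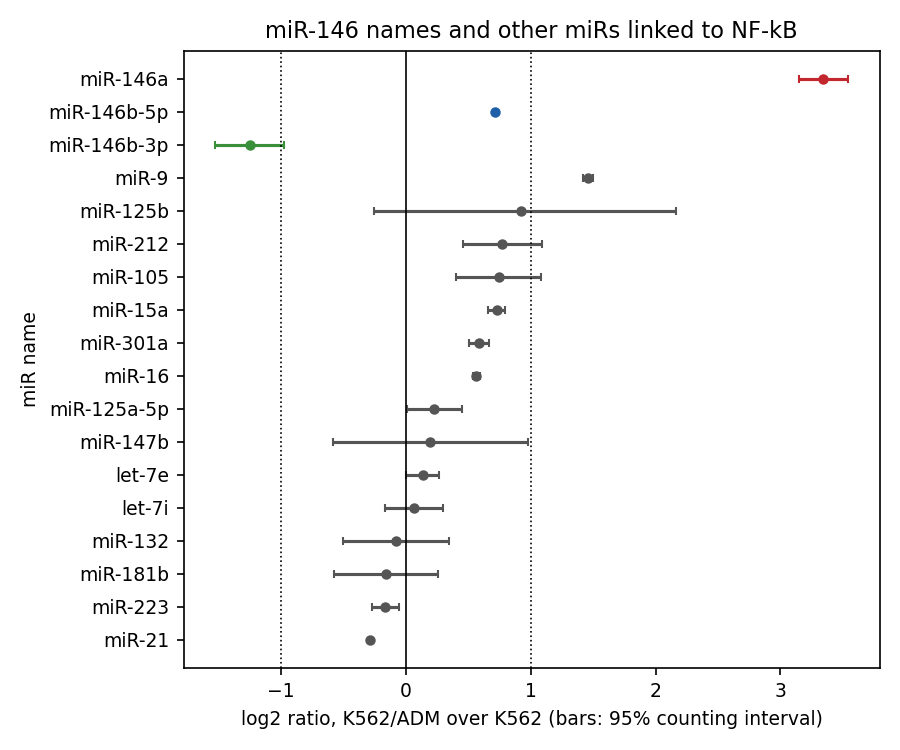
Log2 ratio of K562/ADM to K562 (x axis) of the 3 miR-146 names and of the 15 other miRs linked to NF-kB that had at least 10 reads (y axis, by name). Horizontal bars give the 95% interval from counting, with equality drawn solid and 2-fold differences dotted. MiR-146a stands at 3.34, to the right of every other name drawn, and miR-146b-3p at -1.25, to the left of them.

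Names from the chromosomes of the miR-146 genes were called in both directions. On chromosome 5, apart from miR-146a, 5 of 38 names were called higher and 4 lower. On chromosome 10, apart from the miR-146b names, 2 of 28 were called higher and 3 lower, where 11.1% of all names were called higher and 15.6% lower. MiR-3142, whose hairpin lies in the same host gene as miR-146a, is not listed. Neighbours were taken by order along the chromosome alone, and their distances from the miR-146 genes were not measured. The nearest listed hairpin before MIR146A was that of miR-1303, which had 17 reads in K562/ADM and 54 in K562, 10 and 80 for mir-1303*, and both names were called lower. After it came mir-103-1*, with 0 reads in K562/ADM and 1 in K562. MiR-103, the same name without its gene number and *, was not counted as a neighbour. Its reads were 10317 in K562/ADM and 16666 in K562, a ratio of 0.758 that was not called. Before MIR146B stood mir-3158-2*, with 0 reads in K562/ADM and 3 in K562. MiR-3158, again without the gene number and *, was not counted as a neighbour. It had 79 reads in K562/ADM and 267 in K562, a ratio of 0.362 (95% interval 0.278 to 0.467), and was called lower. After MIR146B stood miR-1307, with 842 reads in K562/ADM and 1997 in K562, a ratio of 0.516 (95% interval 0.476 to 0.560) that was not called. The other arm of that hairpin, mir-1307*, had 78 reads in K562/ADM and 90 in K562, and its ratio was 1.06 (0.774 to 1.45).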

How the data were processed

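By their account, the authors removed adapters and sequences seen once. They mapped the reads with Bowtie in miRanalyzer to miRBase 16 and divided the counts by a DESeq size factor. The submitters' processing notes also name CASAVA 1.7.0 and hg18. The deposited signal is the scaled read count. The deposited fold, log2 and p-value columns are the authors' own comparison and were not used. Each column was divided by its lowest nonzero value to give back whole reads, which held within 0.001 for 100% of the values. Names with 1 recovered read, such as miR-494 in K562/ADM, are listed although sequences seen once were removed. None of the sources used here explains this. With 1 library per cell line no count model could be fitted, so that no miR was called by a test and no p-value was computed. Ratios were scaled by the median of ratios, with intervals from the exact binomial split of the reads. The members and lists were chosen with earlier results of these data known. Named were all miR-146 names, the listed NF-kB-linked and marker miRs, the 3 names most like each 5p arm and the nearest listed gene on each side. RefSeq gene names (GRCh38.p14) placed 857 names on 1 chromosome and 46 on several, and 31 were not matched. The scaling, intervals and calls were tried on simulated counts that held counting error only. Variation between libraries of a cell line was therefore not covered by that trial. The alternatives were scaling by total reads, TMM, upper quartile, miR-425 or total reads without miR-378, read minimums, other call rules, a pseudocount of 1 and other pools. Python 3.11.15, scipy 1.17.1, R 4.3.3, edgeR 4.0.16 (scaling factors only) and GENCODE 44 on GRCh37 were used.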

Additional observations from a re-analysis of the deposited data

How the results depend on the processing

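The ratios of the members kept their side of 1 under all 5 other scalings. The ratio of miR-146a ran from 9.22 to 10.2, apart from 17.0 under upper-quartile scaling. For miR-146b-5p and the pool it was 1.49 and 1.49 by total reads, 1.51 and 1.51 by miR-425, 1.57 and 1.57 by total reads without miR-378, and 2.74 and 2.75 by upper quartile. MiR-146b-3p, rescaled after seeing the data, was 0.704 by upper quartile and at most 0.421 otherwise. Upper-quartile scaling called 223 names higher and 95 lower, calls by fold alone 236 and 275, and a whole interval past 2-fold 61 and 104. For the NF-kB-linked list, the median log2 ratio was 0.97 by upper quartile, with 7 names called higher, and 0.088 by total reads. The cause was not tested. The other scalings and a minimum of 10 reads called 93 to 104 higher and 141 to 165 lower. Adding 1 read or pooling all names left the ratios, shares and odds of the members within their intervals. Upper-quartile scaling moved each member's ratio out of its counting interval. Scaling by total reads, by miR-425 or by total reads without miR-378 also did so for miR-146b-5p and the pool. Of the 3 members miR-146b-3p, with the fewest reads, had the widest interval relative to its ratio. No paired analysis was possible because each cell line has 1 library.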

Other observations

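Among the 10 hairpins of the 87 with the most abundant major arm, a group formed after the values were seen, the minor arm took a smaller share in K562/ADM in 8, with a median log2 odds of -0.55, and in 45 of the other 77, with a median of -0.11. MiR-146b was 1 of these 10. MiR-378* had 43 reads in K562/ADM and 121 in K562 beside a nearly even major arm, and miR-101* had 16 and 45. The exceptions were miR-21* and miR-130b*, whose log2 odds were 0.43 and 0.74. MiR-142-5p, the minor arm of the other abundant blood-cell hairpin, had log2 odds of -0.64.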
